A study of Mus musculus with 6 samples.

Results

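The genes described here are 10 transcription factor genes of the immediate early response: the FOS family members Fos, Fosb, Fosl1 and Fosl2, the JUN family members Jun, Junb and Jund, and Atf3, Egr1 and Myc. They were chosen by gene symbol, each is represented by 1 probe set, and all 10 were among the 18238 genes tested. Their levels were compared between injured mouse kidneys after m4PTB, given at 100 mg per kg body weight, and after vehicle, which was 20% hydroxypropyl cyclodextrin in water. The mice were male, of the BALB/c strain and 10 to 12 weeks old. m4PTB is methyl 4-(phenylthio)butanoate, known as an inhibitor of histone deacetylases. All the mice, controls included, had 26 min of ischemia of 1 kidney followed by reperfusion, with the opposite kidney removed, and were treated 24 h after the injury. The injured kidney was taken 12 h after treatment, at day 1.5, and its total RNA was hybridised to 1 expression array. The kidneys had been selected for a similar degree of injury by serum creatinine, blood urea nitrogen and Kim1 expression, so they are not a random sample of injured kidneys. There were 3 vehicle and 3 m4PTB arrays. The labels number them as replicates and say nothing of how they were raised or processed, so a p-value here reflects only how far these samples spread, and that spread may be technical.

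Immediate early genes are transcribed within minutes of a stimulus without new protein synthesis, and most of their transcripts decay quickly. FOS and JUN proteins pair through leucine zippers to form the factor AP-1, which binds TGANTCA, and members of the ATF family pair with them or with each other and bind the related sequence TGACNTCA. In the kidney, Fos, Jun, Egr1, Atf3 and Myc are known to be induced by ischemia and reperfusion. Tissue was taken here long after the first hours of reperfusion, and no uninjured kidney is among the arrays, so the values compare 2 treatments of injured kidneys and do not measure induction by the injury.

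Promoter windows of 7 of the 10 genes, from 250 bases before to 50 bases after the annotated start, were found in RefSeq's table for build GRCm38.p6 and searched on both strands for TGANTCA, for TGACNTCA, for the shorter core TGACG, and for the Myc and Max site CACGTG. The shorter core TGACG overlaps TGACNTCA where N is G. Those of Fos, Jun and Atf3 are printed 5′ to 3′ on the strand of the gene, with every match in capitals, because these 3 genes deviated in opposite directions on 1 array described below. The Fos window is chr12:85473640-85473939 on the plus strand, the Jun window chr4:95052173-95052472 on the minus strand and the Atf3 window chr1:191183284-191183583 on the minus strand.
Fos: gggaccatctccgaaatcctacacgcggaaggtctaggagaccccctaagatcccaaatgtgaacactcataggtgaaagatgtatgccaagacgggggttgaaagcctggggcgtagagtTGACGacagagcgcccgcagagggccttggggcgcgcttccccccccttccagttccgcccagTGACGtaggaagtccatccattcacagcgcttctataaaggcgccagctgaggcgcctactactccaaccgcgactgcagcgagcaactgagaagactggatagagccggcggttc
Jun: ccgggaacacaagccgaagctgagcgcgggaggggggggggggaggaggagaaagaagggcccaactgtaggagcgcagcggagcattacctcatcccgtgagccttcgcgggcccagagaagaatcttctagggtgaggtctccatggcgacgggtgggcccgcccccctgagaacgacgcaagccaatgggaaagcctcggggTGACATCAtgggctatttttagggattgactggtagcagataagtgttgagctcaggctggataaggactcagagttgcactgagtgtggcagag
Atf3: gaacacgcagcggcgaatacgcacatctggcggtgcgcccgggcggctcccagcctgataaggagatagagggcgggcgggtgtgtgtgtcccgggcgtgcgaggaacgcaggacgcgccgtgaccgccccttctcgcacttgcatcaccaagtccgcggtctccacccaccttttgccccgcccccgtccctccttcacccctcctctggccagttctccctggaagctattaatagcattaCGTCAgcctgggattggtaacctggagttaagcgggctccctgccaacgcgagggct
The Fos window held TGACG at 129 and at 66 bases before the start. In the Jun window the longer motif matched as TGACATCA, 45 bases before the start. Atf3 had TGACG on the opposite strand, read as CGTCA, 7 bases before the start. Fosb and Junb held TGACG at 60 and at 106 bases before the start, and none of the 4 motifs was found in the windows of Fosl2 and Jund. Among all 32851 windows of this length, TGACG was found in 20.8%, TGACNTCA in 8.83%, TGANTCA in 7.81% and CACGTG in 7.15%. A match says that the letters are present and not that a factor was bound.

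The signals of most of these genes were low at day 1.5, as were those of most genes tested. On the deposited log2 scale, the background, taken as the 90th percentile of the negative controls, lay between 7.73 and 7.86 on the 6 arrays and their median between 5.56 and 5.95. Fos, Fosb, Fosl1, Junb, Atf3 and Egr1 lay below that percentile on all 6 arrays. Fosl2, Jun and Jund lay above it on all 6, and Myc on 4. Thus 4 of the 10 genes lay above it on 3 or more arrays, as did 8083 of all 18238 genes tested. Low signal is therefore not particular to these genes. Background shrinks the measured difference of a dim gene. Probe sets differ in their response, so the level of 1 gene was not set against that of another.

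**Figure D1:**
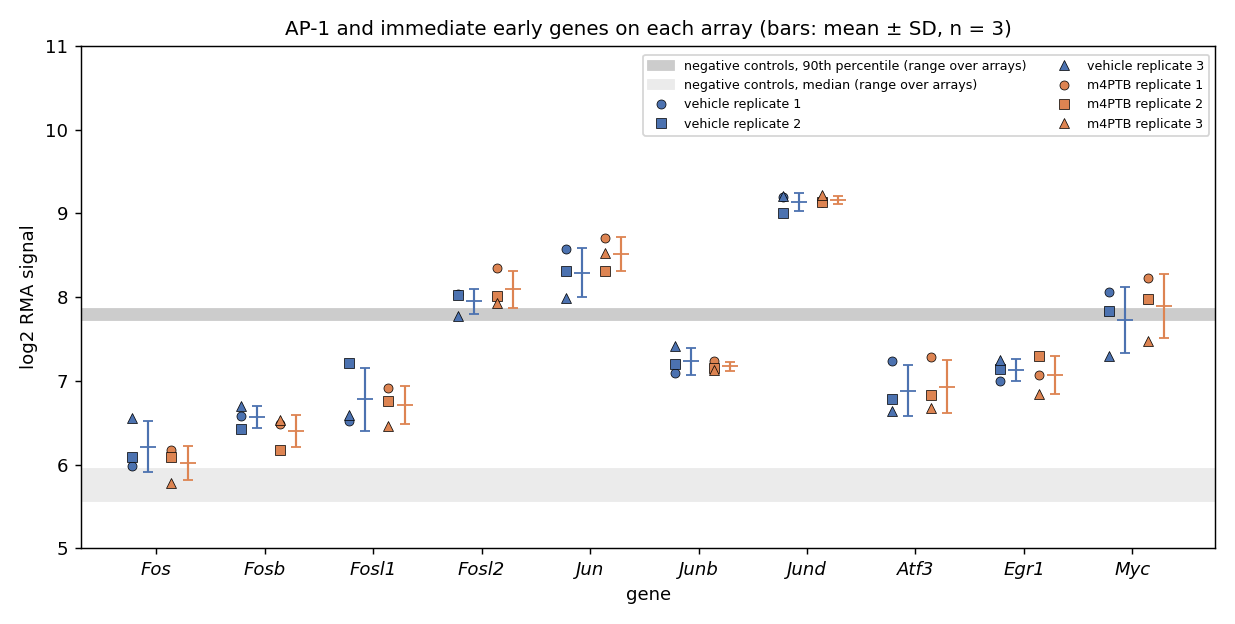
Log2 RMA signal (y axis) of the 10 genes (x axis) on each array, vehicle in blue and m4PTB in orange, with a marker shape for each replicate number and the mean ± SD of each group (n = 3) beside the points. Grey bands give the range over the 6 arrays of the negative controls' 90th percentile (7.73 to 7.86) and median (5.56 to 5.95), and the vehicle and m4PTB points of every gene overlap.

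None of the 10 genes differed between m4PTB and vehicle kidneys beyond the spread between arrays. By limma, 0 of the 10 had an adjusted p under 0.05, against 0% of all genes tested, and 0 had an unadjusted p under 0.05, against 7.23% of all genes. In 0 of the 10 did the 3 m4PTB values lie entirely above or below the 3 vehicle values, against 14.6% of all genes tested. The 5 genes Fosl2, Jun, Jund, Atf3 and Myc were higher in m4PTB kidneys and the other 5 lower, with Jund and Atf3 turning lower once each array's median was subtracted and Jund after cyclic loess. The 10 had a median log2 difference of -0.01 where that of all genes was 0.01. Differences ran from -0.20 for Fos to 0.22 for Jun. The lowest bound of any of the 10 confidence intervals (95%) was a fold of 0.672, for Fos, and the highest was a fold of 1.63, for Myc. With 3 arrays a group, the smallest p of the exact two-sided permutation test was 0.1, and the 10 genes gave 0.4 to 0.8.

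Among the FOS family, Fos encodes the inducible partner of JUN for which the family is named. Its log2 signal was 5.99, 6.09 and 6.56 in vehicle replicates 1 to 3 and 6.17, 6.09 and 5.78 in m4PTB replicates 1 to 3. Vehicle replicate 3 was the highest array and m4PTB replicate 3 the lowest, and the other 4 arrays lay between them. The group means were 6.21 ± 0.31 (SD, n = 3) and 6.02 ± 0.20 (SD, n = 3), which gave a log2 difference of -0.20 (SE 0.16) with an interval from -0.57 to 0.18 (limma adjusted p = 0.741). Without vehicle replicate 3 the difference was -0.02.

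Fosb, whose protein resembles FOS and whose truncated form lacks the transactivating end, was at 6.57, 6.43 and 6.69 in vehicle and at 6.49, 6.18 and 6.53 in m4PTB kidneys. The groups overlapped, with vehicle replicate 3 again the highest array. Their difference was -0.17 (SE 0.11, limma adjusted p = 0.711), with the smallest p of the 10 genes, and was -0.10 without vehicle replicate 3. Leaving out m4PTB replicate 2 brought it to -0.06. Fosl1 encodes FRA1, which lacks a transactivation domain of its own, and its highest array was vehicle replicate 2. It was at 6.52, 7.22 and 6.60 in vehicle and at 6.91, 6.76 and 6.46 in m4PTB kidneys, a difference of -0.07 (SE 0.19) that became 0.15 without vehicle replicate 2. Fosl2 encodes FRA2, the other FOS-related antigen. It was at 8.04, 8.03 and 7.78 in vehicle and at 8.34, 8.01 and 7.93 in m4PTB kidneys. The groups overlapped, m4PTB replicate 1 was the highest array and vehicle replicate 3 the lowest. The difference of 0.14 (SE 0.12, limma adjusted p = 0.752) became 0.06 when vehicle replicate 3 was left out and 0.02 when m4PTB replicate 1 was.

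In the JUN family, Jun encodes the AP-1 subunit that is phosphorylated by the JNK kinases. Its signal was 8.57, 8.31 and 7.99 in vehicle and 8.71, 8.31 and 8.52 in m4PTB kidneys. Vehicle replicate 3 was the lowest array, and vehicle replicate 1 was above both m4PTB replicates 2 and 3. The vehicle mean was 8.29 ± 0.29 (SD, n = 3) and the m4PTB mean 8.51 ± 0.20 (SD, n = 3), and Jun thus differed by 0.22 (SE 0.16) with an interval from -0.14 to 0.59 (limma adjusted p = 0.714). Leaving out vehicle replicate 3 gave 0.07, and leaving out vehicle replicate 1 gave 0.37, where Jun had an unadjusted p of 0.0393 and an adjusted p of 0.551.

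Junb, whose protein can oppose JUN in growth control, was at 7.09, 7.20 and 7.41 in vehicle and at 7.23, 7.15 and 7.13 in m4PTB kidneys. The m4PTB values lay inside the vehicle range, and the difference of -0.06 (SE 0.09) became 0.03 without vehicle replicate 3. Jund, the JUN gene that is expressed steadily in most cells, was at 9.20, 9.01 and 9.20 in vehicle and at 9.14, 9.14 and 9.22 in m4PTB kidneys. It varied least of the 10 genes, with a range of 0.21 over the 6 arrays. Its difference of 0.03 (SE 0.08) had the narrowest interval of the 10, from -0.16 to 0.21.

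Atf3 encodes a stress-induced member of the ATF family that represses transcription as a homodimer. It was at 7.23, 6.78 and 6.64 in vehicle and at 7.28, 6.83 and 6.67 in m4PTB kidneys. The groups covered almost the same range, and the difference was 0.05 (SE 0.19, limma adjusted p = 0.947). Egr1, a zinc finger factor induced through serum response elements, was at 6.99, 7.14 and 7.25 in vehicle and at 7.07, 7.30 and 6.84 in m4PTB kidneys. Both the highest and the lowest array were m4PTB arrays, and the difference was -0.06 (SE 0.12).

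Myc, which pairs with MAX to activate genes of growth and ribosome production, varied most. Its signal was 8.06, 7.83 and 7.29 in vehicle and 8.23, 7.98 and 7.47 in m4PTB kidneys, a range of 0.94 over the 6 arrays. Replicate 3 was the lowest array of each group, and m4PTB replicate 1 was the highest of all. The vehicle mean was 7.73 ± 0.39 (SD, n = 3) and the m4PTB mean 7.89 ± 0.38 (SD, n = 3), and Myc thus differed by 0.16 (SE 0.23) with an interval from -0.38 to 0.71 (limma adjusted p = 0.844). Without vehicle replicate 3 the difference was -0.06, and without m4PTB replicate 3 it was 0.37.

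**Figure D2:**
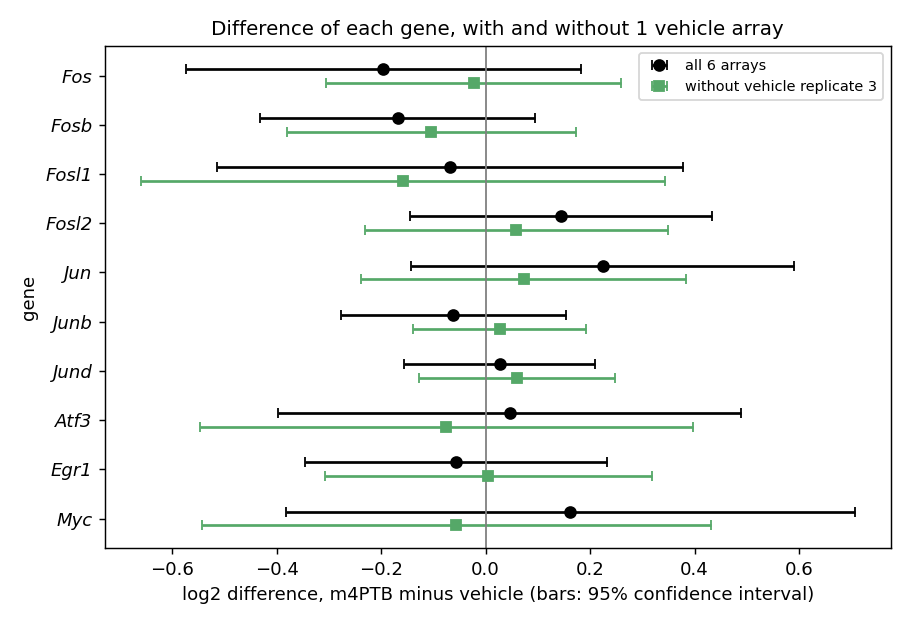
Log2 difference, m4PTB minus vehicle (x axis), of the 10 genes (y axis) with its 95% confidence interval from limma, from all 6 arrays (black circles) and without vehicle replicate 3 (green squares). Every interval includes 0, and the differences of Fos, Jun and Myc moved from -0.20, 0.22 and 0.16 to -0.02, 0.07 and -0.06 without that array.

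The spread inside the groups was wide for these genes. The SD within groups exceeded that of 75% of all genes tested in 8 of the 10. For Myc it was 0.39, larger than that of 99.5% of genes, for Fosl1 0.31 and for Atf3 0.31, larger than that of 98.4% and 98.3%. The exceptions were Junb, at 55.8%, and Jund, at 33.2%.

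Leaving out vehicle replicate 3 moved the differences of Fos, Jun, Junb and Myc more than leaving out any other array did. Those of Fosl1 and Jund moved most without vehicle replicate 2, those of Fosl2 and Atf3 without m4PTB replicate 1 and those of Fosb and Egr1 without m4PTB replicate 2. Fos, Fosb and Junb were highest on vehicle replicate 3, and Fosl2, Jun, Atf3 and Myc were lowest on vehicle replicate 3. It held the highest or lowest value of 7 of the 10 genes, and it did so for 63.9% of all genes tested, so the array stood apart generally. Against the mean of the other 2 vehicle arrays, Fos was 0.52 higher and Junb 0.27 higher, whereas Myc was lower by a difference of -0.65, Jun by -0.45 and Atf3 by -0.36. The 4 genes lowest on vehicle replicate 3 were all highest on m4PTB replicate 1. The share of all genes with both traits was not computed. On m4PTB replicate 1, 4 of the 10 genes were highest and 0 lowest, and 31.7% of all genes were highest or lowest. Vehicle replicate 3 had a mean correlation with the other arrays of 0.987, against 0.993 to 0.994 for the rest, and its negative control median of 5.56 was the lowest.

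**Figure D3:**
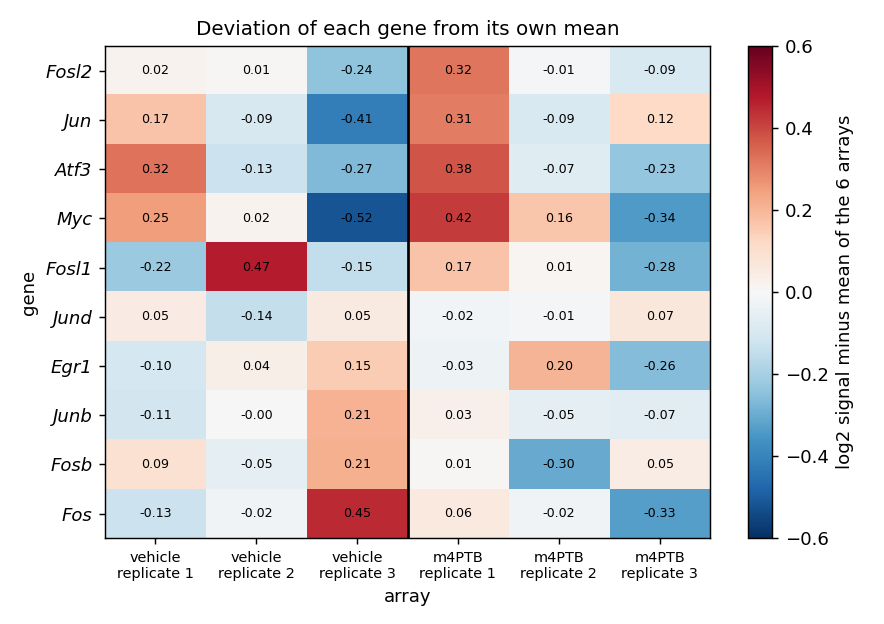
Log2 signal of each gene (rows) on each array (columns) minus that gene's mean over the 6 arrays, red for higher and blue for lower, with the value printed in each cell and a line between the groups. Vehicle replicate 3 shows opposite deviations of Myc (-0.52) and Jun (-0.41) against Fos (0.45), and m4PTB replicate 1 shows the highest values of Fosl2, Jun, Atf3 and Myc.

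Cell markers also differed between arrays. All 5 proximal tubule markers, both thick ascending limb markers and both collecting duct markers lay above the negative controls' 90th percentile on all 6 arrays. The mean of the proximal tubule markers was 12.97 to 13.03 in vehicle and 12.80 to 12.94 in m4PTB kidneys, and that of the thick ascending limb markers 12.57 to 12.67 and 12.42 to 12.55, so neither list's groups overlapped. Among 35 marker genes tested, groups did not overlap in 7, against 14.6% of all genes tested. Miox, an enzyme of the proximal tubule, differed by -0.24 (limma adjusted p = 0.663), the endothelial gene Pecam1 by 0.35 (limma adjusted p = 0.679) and the fibroblast gene Dcn by -0.28 (limma adjusted p = 0.638). Miox, Pecam1 and Dcn were below an unadjusted p of 0.05 by limma, as was Cyp2e1 (-0.26, groups overlapping), against 7.23% of all genes. The other endothelial markers Cdh5, Kdr and Emcn differed by 0.19, 0.02 and -0.03, all with overlap. Lrp2, of the proximal tubule list, differed by 0.02. Vehicle replicate 3 had the lowest mean of the 6 macrophage markers, at 7.55, where vehicle arrays reached 7.91 and m4PTB arrays ran from 7.75 to 7.95, and 2 of the 6 lay above the percentile on all arrays. It also had the lowest mean of the 4 endothelial markers, at 8.94 against up to 9.20 in vehicle and 9.12 to 9.26 in m4PTB kidneys. The mean of the 4 fibroblast and smooth muscle markers was 9.62 on it, against up to 9.90 in vehicle and 9.84 to 9.89 in m4PTB kidneys. Dcn of that list went the other way from Col1a1, Pdgfrb and Acta2 and was highest on vehicle replicate 3, at 9.79, with 9.65 and 9.58 on the other vehicle arrays and 9.30 to 9.51 in m4PTB kidneys. Markers of neutrophils (2 of 5 tested) and of T and B cells (3 of 4 tested) lay at background, with none above the percentile on all arrays, and the mean of the latter was highest on vehicle replicate 3, at 6.59, against up to 6.29 in m4PTB kidneys. Whether these markers have a part in the values of Fos, Jun or Myc was not tested. In whole kidneys, fewer cells of a type and less RNA per cell cannot be told apart. Havcr1, the gene of Kim1, by which kidneys were selected, averaged 11.71 in vehicle and 11.73 in m4PTB kidneys, and was lowest, at 11.50, on vehicle replicate 3.

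The 10 genes did not follow a common profile over the arrays. Likeness was measured as the root mean square difference between the profiles over the 6 arrays, each centred on its mean. This measure is also small where both genes vary little, whether or not they move together. The smallest differences were those of Junb with Jund (0.12), Junb with Egr1 (0.14) and Fosl2 with Jun (0.14). Junb and Jund had ranges of only 0.32 and 0.21 over the arrays, and their highest and lowest arrays differed. Their small difference therefore does not show a shared profile. Fosb with Junb (0.14), Fosb with Jund (0.14), Fos with Junb (0.15), Fosl2 with Atf3 (0.15), Fos with Egr1 (0.16) and Atf3 with Myc (0.16) followed. The largest differences were those of Fos with Myc (0.45) and Fos with Jun (0.43). For scale, the root mean square deviation from its own mean was 0.23 for Fos, 0.26 for Atf3 and 0.33 for Myc. Among 7417 other genes above the negative controls' 90th percentile on all arrays, the profile most like that of Atf3 was that of Klf6, a zinc finger factor of the immediate early class (0.10), followed by the kinase gene Nuak2 (0.10) and the tubulin gene Tubb2a (0.12). Klf6 was also nearest to Myc (0.11), followed by Ccn1, a matricellular gene induced by serum (0.12), and the locus Gm5921 (0.13). Ccn1 was at 9.18, 8.80 and 8.33 in vehicle and at 9.51, 8.92 and 8.64 in m4PTB kidneys. As for Myc, replicate 3 was the lowest array of each group and m4PTB replicate 1 the highest. Ccn1 was picked for its likeness to Myc on these arrays, so the shared order is no separate observation. Nearest to Fos were the microRNA gene Mir667 (0.06) and the loci Gm16483 (0.07) and LOC100043371 (0.07). These are descriptions of 6 arrays that share the deviation of vehicle replicate 3.

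Genes that act with, before or after these factors were followed in 6 lists, and 0 genes of any list had a limma adjusted p under 0.05. At an unadjusted p under 0.05, 4.67% of all genes tested were higher in m4PTB kidneys and 2.56% lower. Of all genes, 54.5% were higher in m4PTB kidneys, or 34.5% with each array's median subtracted and 50.1% after cyclic loess. Groups did not overlap in 9.38% of all genes in the higher and 5.21% in the lower direction.

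Of 20 possible AP-1 dimer partners, 8 were higher and 12 lower, with a median of -0.01. There were 4 higher and 16 lower with array medians subtracted, and 6 and 14 after cyclic loess. At an unadjusted p under 0.05 there were 0 higher and 2 lower, and groups did not overlap in 1 higher and 2 lower. Mafa, a large MAF factor best known from pancreatic beta cells, was at 6.50, 6.34 and 6.72 in vehicle and at 6.20, 6.18 and 6.23 in m4PTB kidneys, a difference of -0.32 (SE 0.10) with no overlap. Batf2, of the BATF family, and Atf5, a stress-response factor, differed by -0.33 and -0.15. All 3 lay below the negative controls' 90th percentile on every array.

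Of 45 tested genes among other immediate early genes and feedback regulators, 28 were higher and 17 lower, with a median of 0.02. There were 18 higher and 27 lower with array medians subtracted, and 20 and 25 after cyclic loess. An unadjusted p under 0.05 was found for 1 in each direction, and groups did not overlap in 2 higher and 4 lower. Gadd45a, a stress sensor gene that is also a p53 target, had a mean of 7.79 ± 0.12 (SD, n = 3) in vehicle and of 8.06 ± 0.06 (SD, n = 3) in m4PTB kidneys and differed by 0.27 (SE 0.08, limma adjusted p = 0.638) without overlap. It was above the negative controls' percentile on 4 arrays. Egr4, a relative of Egr1, was at 6.75, 6.88 and 7.30 in vehicle and at 6.63, 6.65 and 6.60 in m4PTB kidneys. The groups did not overlap, its difference was -0.35 (SE 0.13), and without vehicle replicate 3 it was -0.19. Spry2, a feedback inhibitor of receptor tyrosine kinases, differed by 0.23. It was 0.14 without vehicle replicate 3. Ier2, an early gene induced by growth factors, differed by 0.14, a value that was 0.25 when vehicle replicate 3 was left out and 0.04 when vehicle replicate 2 was. Ier3 differed by -0.06 and the nuclear receptor gene Nr4a1 by -0.02. Dusp1, the phosphatase that switches off JNK and p38, was at 8.91, 8.87 and 9.61 in vehicle and at 8.98, 8.96 and 9.45 in m4PTB kidneys, and Zfp36, which promotes decay of AU-rich mRNAs, at 7.67, 7.77 and 7.85 and at 7.74, 7.79 and 7.79. Dusp1 was highest on replicate 3 of both groups, the arrays on which Myc was lowest. Its groups overlapped, with a difference of 0.0025 (SE 0.21). Egr4, Spry2, Ier2, Ier3 and Nr4a1 lay below the negative controls' percentile on every array. Zfp36 lay above it on 1 array and Dusp1 on every array.

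Of 36 kinases and serum response factors upstream of these genes, 29 were higher and 7 lower, with a median of 0.06. There were 19 higher and 17 lower with array medians subtracted, and 22 and 14 after cyclic loess. At an unadjusted p under 0.05, 2 were higher and 0 lower. The groups did not overlap in 7 genes, all higher, against 9.38% of all genes in that direction. Mapk13, the delta isoform of p38, was at 7.91, 8.18 and 7.83 in vehicle and at 8.24, 8.41 and 8.30 in m4PTB kidneys, a difference of 0.34 (SE 0.10, limma adjusted p = 0.638). Map3k5, which encodes the stress kinase ASK1, differed by 0.24 and Map2k3, a kinase that activates p38, by 0.18. Both had no overlap between groups, and all 3 lay above the negative controls' percentile on every array. Srf, the serum response factor that activates Fos and Egr1, differed by 0.04. Without vehicle replicate 3 the median of the list was 0.02, and that of all genes was 0.01.

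The Myc network, with 16 genes tested, had 8 higher and 8 lower and a median of 0.01. There were 6 higher and 10 lower with array medians subtracted, and 7 and 9 after cyclic loess. At an unadjusted p under 0.05 there were 2 higher and 0 lower, and groups did not overlap in 1 higher and 1 lower. Ruvbl1, an ATPase of chromatin remodelling complexes that binds Myc, was at 7.18, 7.19 and 7.18 in vehicle and at 7.52, 7.49 and 7.54 in m4PTB kidneys. The groups lay far apart next to a vehicle SD of 0.0074. Limma moderates such small spreads, and its difference of 0.34 (SE 0.06) had an adjusted p of 0.547. Its signal lay below the negative controls' percentile on all arrays. Mxd3, a Max partner expressed in dividing cells, differed by 0.26, Mnt, a Max partner that represses, by -0.14, and Max itself by 0.16. Mxd3 and Mnt also lay below that percentile on all arrays, and Max lay above it on all. Without vehicle replicate 3 the difference of Max was 0.05 and that of Mnt -0.08, and without vehicle replicate 1 that of Mnt was -0.21.

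Of 37 tested genes known as AP-1 targets, 27 were higher and 10 lower, with a median of 0.08. There were 19 higher and 18 lower with array medians subtracted, and 25 and 12 after cyclic loess. At an unadjusted p under 0.05 there were 3 higher and 1 lower, and groups did not overlap in 3 higher and 1 lower. Lif, a cytokine of the IL-6 family, was at 5.61, 5.73 and 5.60 in vehicle and at 5.93, 5.82 and 5.95 in m4PTB kidneys, a difference of 0.25 (SE 0.07) in a signal near the negative control median. Itga5, the fibronectin receptor subunit, was at 7.57, 7.50 and 7.05 in vehicle and at 7.92, 7.73 and 7.70 in m4PTB kidneys, a difference of 0.41 that was 0.24 without vehicle replicate 3. Mmp10, a matrix protease, differed by -0.17. None of these 3 had overlapping groups. Lif and Mmp10 lay below the negative controls' percentile on every array, and Itga5 lay above it on 1 array.

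Of 40 genes known as Myc targets, 33 were higher and 7 lower, with a median of 0.09. There were 26 higher and 14 lower with array medians subtracted, and 31 and 9 after cyclic loess. At an unadjusted p under 0.05, 1 was higher and 0 lower. In 6 of them the groups did not overlap, all higher, against 9.38% of all genes in that direction. Impdh2, an enzyme of guanine nucleotide synthesis, was at 8.18, 8.35 and 7.91 in vehicle and at 8.57, 8.41 and 8.38 in m4PTB kidneys, a difference of 0.31 (SE 0.12, limma adjusted p = 0.679). Wdr43, a protein of ribosome assembly, and Cdk4, the G1 kinase, differed by 0.21 and 0.17. Both had no overlap, and all 3 lay above the negative controls' percentile on every array. Without vehicle replicate 3 the median of the list was 0.04, where that of all genes was 0.01. The differences of Impdh2, Wdr43 and Cdk4 were then 0.19, 0.12 and 0.12.

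**Figure D4:**
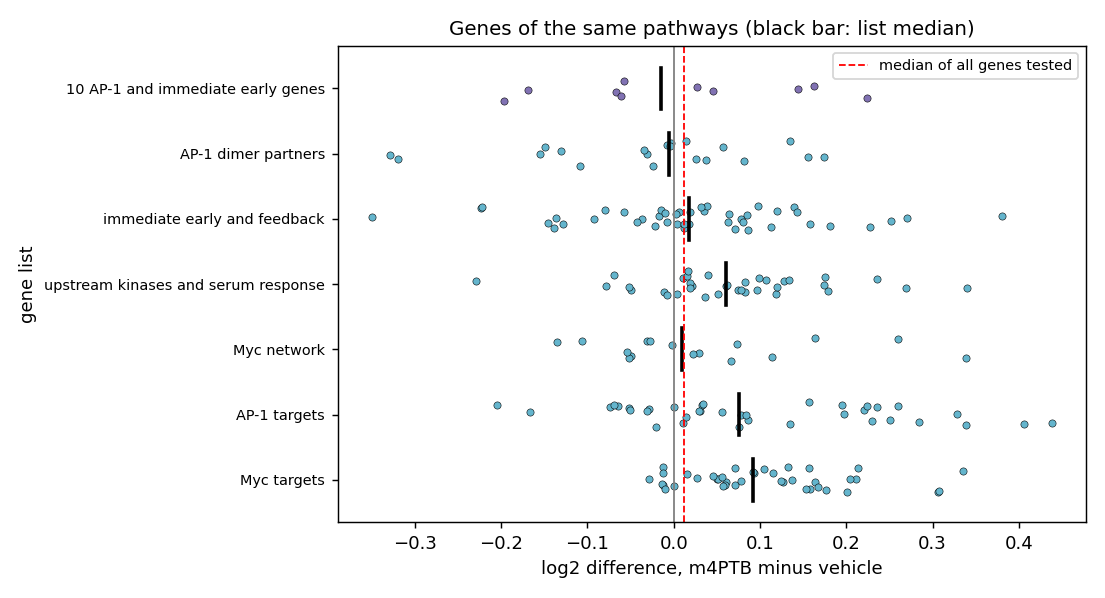
Log2 difference, m4PTB minus vehicle (x axis), of each gene in the 10 AP-1 and immediate early genes and in the 6 pathway lists (y axis), with 1 point per gene, a black bar at each list's median and a dashed line at the median of all genes tested (0.01). The medians run from -0.01 for the 10 genes to 0.09 for Myc targets, and single genes spread on both sides of 0 in every list.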

How the data were processed

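Biotin-labelled material from 10 ug of total kidney RNA per sample was hybridised to Mouse Gene 1.0 ST arrays, per the file headers and labels. The authors deposited log2 signals, 1 per probe set. Per the submitters' processing notes they used RMA and Affymetrix Expression Console 1.1. RMA equalises the distributions of the arrays, which would hide a common shift of most genes. Gene names come from a second deposited table, updated for 2269 probe sets by accession through RefSeq's table for GRCm38.p6. Its 6 signal columns match no sample's labels and were not used. The annotation names build NCBIM37, so no coordinates of probe sets are given.

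Of 35556 probe sets, 6559 controls and those without 1 symbol were left out. A probe set needed a log2 signal of 5 or more on 3 or more arrays, and the one of highest mean over the 6 arrays stood for its gene, which left 18238 genes. The difference between m4PTB and vehicle came from limma 3.58.1 (lmFit, eBayes) in R 4.3.3, with Benjamini-Hochberg adjustment over all genes and a threshold of 0.05, and single genes also had an exact permutation test (two-sided). The steps were tested on simulated data. The alternatives were 2 other scalings, 2 other filters, the mean of a gene's probe sets, another variance model, array weights, a replicate block and leaving out each array. The number of arrays limits the precision, and no sequencing depth applies.

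The 10 genes and the 6 lists were chosen with earlier results of these data known, so no list was tested as a set. From each list the 3 genes of smallest unadjusted p were named, with Dusp1, Ier2, Ier3, Nr4a1, Zfp36, Srf and Max in every case, and for Fos, Atf3 and Myc the 3 genes of most similar profile. Nr4a3 and Il6 did not pass the filter.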

Additional observations from a re-analysis of the deposited data

How the results depend on the processing

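In every alternative run, 0 of all tested genes, and so 0 of the 10 genes, had an adjusted p under 0.05. The 10 genes were split 5 higher to 5 lower, 3 to 7 with each array's median subtracted, 4 to 6 after cyclic loess or without vehicle replicate 2, 3 to 7 without m4PTB replicate 1, 7 to 3 without m4PTB replicate 3, and 4 to 0 of the 4 left by a filter at the 90th percentile of the negative controls. With array medians subtracted, genes below an unadjusted p of 0.05 were split 441 higher to 1064 lower instead of 852 to 466, and the median of all genes was -0.05. With that filter the 4 genes had a median of 0.15, and 772 genes in all were below an unadjusted p of 0.05.

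Directions turned for genes with differences near 0. With array medians subtracted the difference was -0.030 for Jund, -0.011 for Atf3, -0.055 for Dusp1, -0.046 for Zfp36, -0.021 for Srf and -0.043 for Havcr1. After cyclic loess it was -0.016 for Jund, -0.042 for Dusp1, -0.036 for Zfp36 and -0.018 for Srf. With array weights it was -0.019 for Atf3, 0.062 for Egr1 and -0.12 for Havcr1. The causes were not tested.

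Counts at an unadjusted p under 0.05 moved as follows. Array medians subtracted gave 4 for immediate early genes and 1 each for upstream kinases and the Myc network, with 1505 of all 18238 genes. The filter at the 90th percentile of the negative controls left fewer genes in each list. It gave 0 of 7 dimer partners, 1 of 18 immediate early genes, 4 of 28 upstream kinases and 0 of 9 Myc network genes. For AP-1 targets it gave 1 of 21 and for Myc targets 3 of 30, against 772 of all 8083 genes left. Mafa, Batf2, Ruvbl1 and Mxd3 did not pass it. Trended variance gave 4 for upstream kinases and 5 for Myc targets, with 1469 of all genes. Array weights gave 1 for dimer partners, 4 for immediate early genes and 0 for Myc targets, with 1743 of all genes. Cyclic loess and the mean of probe sets each gave 2 for Myc targets, with 1524 and 1297 of all genes. The median of dimer partners was -0.063 with array medians subtracted, -0.032 after cyclic loess and 0.014 with the filter.

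Leaving out 1 array gave 0 to 1 of the 10 below an unadjusted p of 0.05, 0 to 1 without overlap, and 843 to 1807 of all genes at that p. The counts were 1 to 2 for dimer partners (medians -0.039 to 0.029), 1 to 5 for immediate early genes and 1 to 4 for upstream kinases. They were 1 to 2 for the Myc network, 1 to 10 for AP-1 targets and 0 to 9 for Myc targets. The 10 AP-1 targets and the 9 Myc targets came without vehicle replicate 2, as did the 1807 of all genes. Without vehicle replicate 3 there were 3 AP-1 targets and 0 Myc targets, with 1148 of all genes. Differences ranged from -0.13 to 0.22 for Atf3, -0.17 to 0.058 for Egr1, -0.24 to -0.058 for Fosb, 0.041 to 0.25 for Ier2, -0.19 to 0.15 for Fosl1, -0.13 to 0.027 for Junb, -0.037 to 0.060 for Jund, -0.056 to 0.37 for Myc, -0.16 to 0.24 for Dusp1, -0.18 to 0.10 for Ier3, -0.056 to 0.037 for Nr4a1, -0.020 to 0.12 for Srf, -0.036 to 0.058 for Zfp36 and -0.11 to 0.17 for Havcr1.

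Over all genes tested, same-numbered arrays of the groups did not deviate together (correlations of -0.13, -0.05 and -0.08). The numbers were therefore not taken as pairs. Single genes could differ from this, as Myc and Atf3 fell from replicate 1 to replicate 3 in both groups. The fit with the replicate number as a block gave 1 dimer partner and 2 Myc targets at an unadjusted p under 0.05. All genes at that p numbered 1105, and the 10 gave 0, with a smallest adjusted p of 0.806 among them. In that fit Myc differed by 0.16 with a limma unadjusted p of 0.082, against 0.510 without the block. For Atf3 the unadjusted p was 0.579, against 0.817. Dim signals limit Fos, Fosb, Fosl1, Junb, Atf3 and Egr1, for which background compresses differences.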
